A study of Mus musculus with 12 samples.

Results

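The 10 transcripts described here, Snap25, Syt1, Syp, Stmn2, Nefl, Nrgn, Slc17a7, Gad1, Meg3 and Snhg11, are markers of neurons that were counted in RNA of CD11b-positive cells. They were taken by name from a table of 55487 genes, after the Ensembl identifiers had been paired with symbols of the GRCm38 annotation, and all 10 were in the table. Microglia and other myeloid cells carry CD11b on their surface, and the cells were isolated with anti-CD11b magnetic beads from papain-digested cerebral cortex. The 4 groups held 3 male mice each, with 1 library per mouse. WT mice (C57BL/6J) and App NL-G-F mice were injected intravenously with PBS (veh) or with 10 mg/kg of rh Bri2 BRICHOS R221E, a recombinant variant of the chaperone domain of human Bri2. All mice had 24 injections over 12 weeks from 9 months of age and were perfused 4 weeks after the treatment ended. App NL-G-F mice carry the Swedish, Iberian and Arctic mutations in a knock-in App gene, which keeps its own promoter and is not limited to neurons. Each library held between 12433402 and 17889654 counts.

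Neurons signal at synapses, where vesicles filled with transmitter fuse with the membrane when calcium enters. Snap25 belongs to the SNARE complex that drives this fusion, Syt1 is its calcium sensor, and Syp is an abundant membrane protein of the vesicle. Stmn2 and Nefl are proteins of the axonal cytoskeleton, and Nrgn binds calmodulin on the postsynaptic side. Slc17a7 loads glutamate into vesicles and marks excitatory cortical neurons, whereas Gad1 makes GABA in inhibitory neurons. Meg3 is an imprinted long noncoding RNA and Snhg11 is a small nucleolar RNA host gene, and both are abundant in neurons. In bulk RNA, fewer neurons in the isolate and less RNA per neuron cannot be told apart, nor can the cells that the counts came from.

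The 10 transcripts were rare in every library. Together they held between 0.00143% and 0.00653% of the counts of a library. In CPM, the counts of a library scaled to 1000000 with TMM normalization factors, the sum of the 10 was 48.1, 49.8 and 40.5 in the libraries of WT mice given veh and 17.6, 18.6 and 19.9 in those of App NL-G-F mice given veh. It was 44.4, 55.3 and 60.3 in WT and 17.9, 16.3 and 17.6 in App NL-G-F mice given rh Bri2 BRICHOS R221E. All 6 WT libraries lay above all 6 App NL-G-F libraries, and within a strain the treated and veh-treated libraries overlapped. The mean was 46.1 ± 4.99 CPM (SD, n = 3) in WT mice given veh, 53.3 ± 8.13 (SD, n = 3) in WT mice given rh Bri2 BRICHOS R221E, 18.7 ± 1.17 (SD, n = 3) in App NL-G-F mice given veh and 17.3 ± 0.836 (SD, n = 3) in App NL-G-F mice given rh Bri2 BRICHOS R221E. For scale, the sum of 7 microglial markers (Cx3cr1, P2ry12, Tmem119, Csf1r, Itgam, Aif1 and C1qa) was 19519 to 22517 CPM in WT and 17681 to 19350 CPM in App NL-G-F libraries, which matches the labelled cell type.

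Per kilobase of exon, the median level over the 10 transcripts was 0.413 CPM, whereas it was 782 CPM over the microglial markers, 84.0 over 7 oligodendrocyte markers, 38.3 over 8 astrocyte markers and 18.5 over 5 endothelial markers. In WT mice given veh, Nrgn had the highest level per kilobase, at 3.64 ± 0.434 CPM (SD, n = 3), followed by Syp at 2.66 ± 0.717, Stmn2 at 1.10 ± 0.118 and Snap25 at 1.06 ± 0.119. Slc17a7 (0.673 ± 0.245), Nefl (0.522 ± 0.0749) and Syt1 (0.343 ± 0.173) came next, and Snhg11 (0.269 ± 0.100), Meg3 (0.133 ± 0.0151) and Gad1 (0.0854 ± 0.0503) had the lowest levels per kilobase. The lowest library of Syp was above the highest of Stmn2, and the same held for Snap25 over Slc17a7 and for Snhg11 over Meg3. The ranges of the other neighbours in this order overlapped, although Nrgn was above Syp, and Nefl above Syt1, within each library. In App NL-G-F mice given veh the order began with the same 4 transcripts, Nrgn (1.99 ± 0.715), Syp (1.22 ± 0.152), Stmn2 (0.574 ± 0.202) and Snap25 (0.354 ± 0.0480), but Slc17a7 stood at 0.0995 ± 0.0271 and Syt1 at 0.0457 ± 0.0144. Lengths are those of all annotated exons joined, so levels of genes with long rare exons, such as Meg3, are understated.

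The stretch before the start of transcription is shown for 3 of the transcripts, Syt1 and Slc17a7, which had the largest differences between the strains, and Meg3, the long noncoding RNA. Of the 10, 7 had an entry in the RefSeq promoter table (GRCm38.p6), in which 9 start sites were listed for them, and 250 bases before the start were searched for 6 motifs on both strands. Capitals mark every match. Syt1 (chr10:109010983-109011225, minus strand) holds the CCAAT box (CCAAT) 2 times, and 7 bases next to the start were left out because they lie in an annotated exon. Slc17a7 (chr7:45163671-45163920, plus strand) holds the GC box (GGGCGG) 3 times, of which the 2 nearest the start overlap by a base. Meg3 (chr12:109540746-109540995, plus strand) holds a CCAAT box, a cAMP response element (TGACGTCA) and the TATA box (TATAAA) on each strand, and the 2 TATA matches overlap.
Syt1: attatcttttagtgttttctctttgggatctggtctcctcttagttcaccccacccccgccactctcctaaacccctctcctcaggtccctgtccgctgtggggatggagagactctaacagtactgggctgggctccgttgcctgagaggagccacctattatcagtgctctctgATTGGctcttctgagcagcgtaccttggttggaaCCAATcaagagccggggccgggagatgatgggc
Slc17a7: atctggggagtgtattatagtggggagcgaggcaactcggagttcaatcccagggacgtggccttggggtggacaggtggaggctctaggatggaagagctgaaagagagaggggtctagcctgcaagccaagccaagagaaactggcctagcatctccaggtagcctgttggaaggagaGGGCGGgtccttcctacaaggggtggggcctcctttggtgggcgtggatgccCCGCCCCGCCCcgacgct
Meg3: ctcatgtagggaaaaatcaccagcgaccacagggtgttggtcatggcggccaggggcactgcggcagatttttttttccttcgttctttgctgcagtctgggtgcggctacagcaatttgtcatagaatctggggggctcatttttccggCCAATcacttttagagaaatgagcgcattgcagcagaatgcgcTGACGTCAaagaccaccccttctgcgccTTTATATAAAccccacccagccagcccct
Of the 32851 windows in the table, 32.7% held the GC box, 33.8% the CCAAT box, 12.4% the TATA box and 1.55% the cAMP response element. The 9 windows of the neuronal transcripts held the GC box in 5, the CCAAT box in 3, the TATA box in 2 and the cAMP response element in 1. Neither of the letter runs taken from the RE1 element (TTCAGCACC and GGACAGC), which the repressor REST binds at neuronal genes, was in any of the 9, and 0.301% and 5.28% of all windows held them. A match of letters is no evidence of a factor there.

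In veh-treated mice, 9 of the 10 transcripts were lower in App NL-G-F than in WT mice at an adjusted p-value under 0.05 in edgeR's quasi-likelihood test, and only Gad1 did not pass. The background was high in this comparison, in which 37% of the 15425 tested genes passed and 16.9% passed and were lower in App NL-G-F mice. The libraries did not overlap for 8 of the 10, which was the case for 50.9% of all tested genes, and for 25.3% with App NL-G-F lower. The median log2 fold change of the 10 was -1.16, against -0.02 over all tested genes. Between the groups given rh Bri2 BRICHOS R221E, which are other mice in the same fit, 9 of the 10 were again lower in App NL-G-F mice, with Gad1 the exception. There 42.5% of the tested genes passed and 21.8% passed and were lower, and the libraries did not overlap for 9 of the 10, against 51.7% of all tested genes, and 26.4% with App NL-G-F lower. The median log2 fold change was -1.64, against -0.04 over all tested genes. Only Snap25, Syp, Stmn2 and Nrgn had 10 or more counts in every library. The other 6 passed the filter on low counts through the libraries in which they were high, which in itself favours a difference, so the counts over the 10 are a description.

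The calls in the veh pair moved with the libraries. Without veh WT library 3, or without veh App NL-G-F library 1, 4 of the 10 passed, and these were Snap25, Syt1, Syp and Slc17a7 in both cases. Calls over all tested genes fell too, to 4875 of 15875 and 4449 of 15801, against 5710 of 15425 with all libraries. Without veh WT library 1 or 2, or veh App NL-G-F library 2, 6 of the 10 passed. Over all tested genes 4805 of 15844, 4676 of 15878 and 4637 of 15802 passed in these fits. Snap25 and Syp passed under all 19 alternatives in this comparison, with adjusted p-values of at most 0.000516 and 0.0144. Syt1 and Slc17a7 passed under all 18 that tested them, with at most 0.0115 and 0.00304. The filter of 10 or more counts in every library left Syt1 and Slc17a7 out. Stmn2 passed under 14 of 19, Nrgn under 16 of 19, Nefl under 15 of 18, Meg3 under 13 of 18 and Snhg11 under 9 of 18. Scaling to total counts, tried after the data had been seen, left 9 of the 10 lower in each strain comparison but moved the median of all genes by -0.19 and -0.27 on the log2 scale. With it, 5198 of 7202 genes that passed were lower in App NL-G-F mice given veh, against 2611 of 5710 with TMM factors, and 7008 of 8598 were lower with rh Bri2 BRICHOS R221E, against 3358 of 6560.

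**Figure D1:**
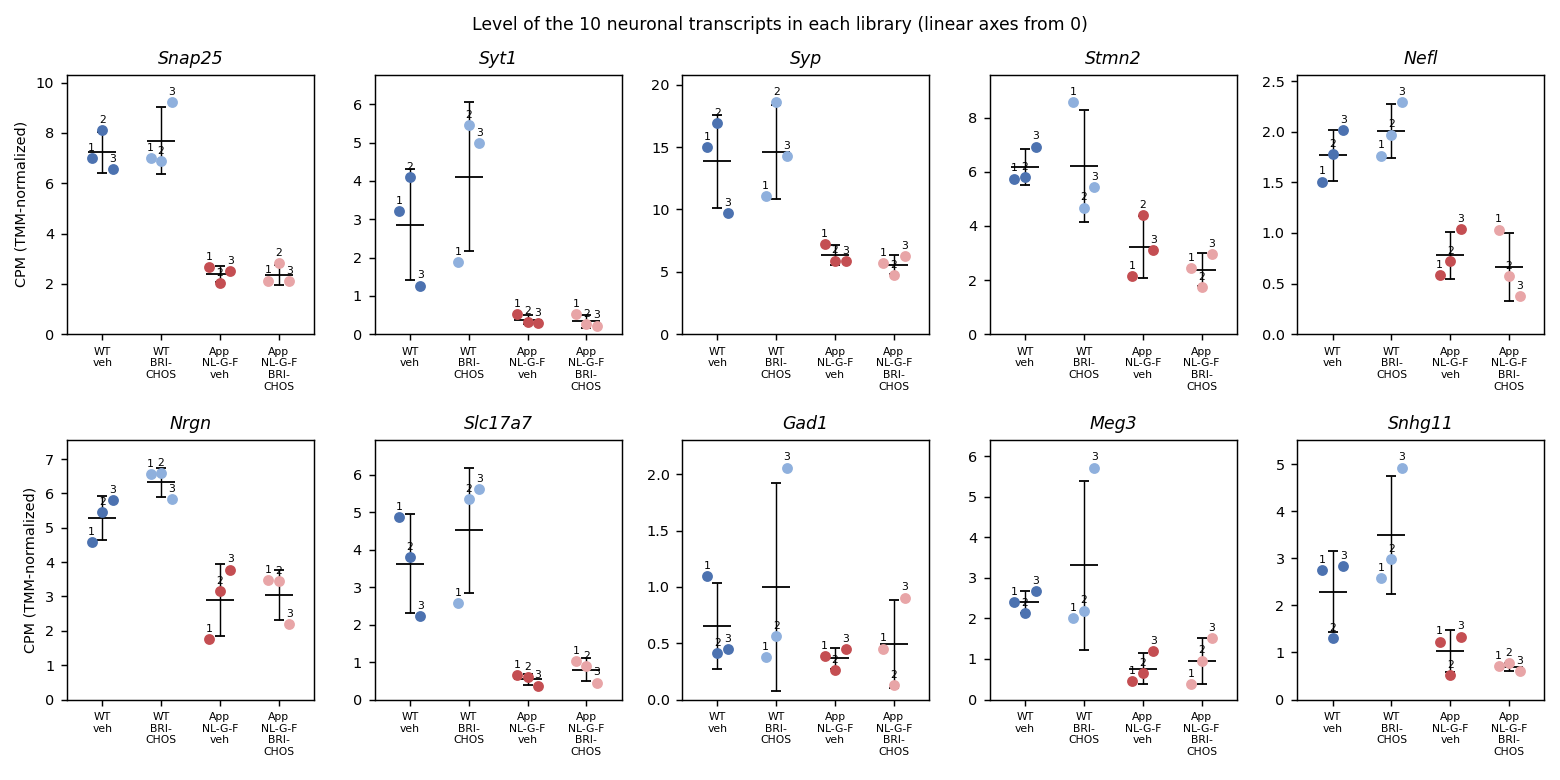
Level of each transcript in the 12 libraries, in CPM computed with TMM factors on linear axes from 0, with the replicate number beside each point and the mean and SD of 3 libraries in black. For Snap25, Syt1, Syp, Stmn2, Nefl, Nrgn, Slc17a7 and Meg3 all App NL-G-F points lie below all WT points, and for Gad1 the groups overlap.

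Among the genes of vesicle release, Snap25 had the lowest adjusted p-value of the 10 in both strain comparisons. Snap25 (chr2:136713453-136782428) was at 6.98, 8.12 and 6.56 CPM in WT mice given veh and at 2.65, 2.03 and 2.52 CPM in App NL-G-F mice given veh. With rh Bri2 BRICHOS R221E it was at 6.99, 6.87 and 9.22 CPM in WT mice and at 2.13, 2.82 and 2.11 CPM in App NL-G-F mice. No App NL-G-F library reached the lowest WT library. The log2 fold change was -1.59 in the veh pair (SE 0.19, 95% interval -2.01 to -1.17, adjusted p = 5.84e-05) and -1.70 in the treated pair (SE 0.19, adjusted p = 3.01e-05, edgeR).

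Syt1 (chr10:108497650-109010982) had the largest fold change of the 10. It was at 3.22, 4.09 and 1.27 CPM in WT mice given veh, from 47, 69 and 17 counts, and at 0.518, 0.328 and 0.296 CPM in App NL-G-F mice given veh, from 8, 5 and 4 counts. With rh Bri2 BRICHOS R221E it was at 1.89, 5.46 and 4.98 CPM in WT and at 0.516, 0.256 and 0.227 CPM in App NL-G-F mice, where the lowest library held 3 counts. WT libraries spread widely and App NL-G-F libraries were close to the limit of 3 counts, 0.168 to 0.241 CPM, but the strains did not overlap. Syt1 entered the test through WT libraries, in which it was high. Syt1 was 7.38-fold lower in App NL-G-F mice given veh (log2 fold change -2.88, 95% interval -4.13 to -1.64, adjusted p = 0.00212) and 12.0-fold lower in the treated ones (-3.58, -4.83 to -2.34, adjusted p = 0.000413, edgeR).

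Syp (chrX:7638471-7653256) was the transcript with the most counts, 74 to 330 per library. It was at 15.0, 16.9 and 9.69 CPM in WT mice given veh and at 7.25, 5.91 and 5.85 CPM in App NL-G-F mice given veh. With the protein it was at 11.1, 18.6 and 14.3 CPM in WT mice and at 5.68, 4.73 and 6.27 CPM in App NL-G-F mice, so that again no App NL-G-F library reached a WT library. The log2 fold change was -1.13 (SE 0.23, adjusted p = 0.00273) in veh-treated and -1.40 (SE 0.23, adjusted p = 0.000598) in treated mice in edgeR. Exons of Syp overlap those of Gm14703 on the opposite strand, and the strand setting of the counting is not given in the sources used here.

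Both transcripts of the axonal cytoskeleton were lower in App NL-G-F mice. Stmn2 (chr3:8509360-8561606), a regulator of microtubules in growing axons, was at 5.75, 5.81 and 6.93 CPM in WT mice given veh and at 2.14, 4.40 and 3.11 CPM in App NL-G-F mice given veh. In treated mice it was at 8.57, 4.67 and 5.44 CPM in WT and at 2.45, 1.73 and 2.95 CPM in App NL-G-F mice. The log2 fold change was -0.94 (SE 0.30, adjusted p = 0.0286) in veh-treated mice and -1.39 (SE 0.31, adjusted p = 0.00348) in treated mice (edgeR). The first adjusted p-value rose to between 0.0516 and 0.111 when any 1 WT library, or App NL-G-F library 1 or 3, was left out of the veh pair.

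Nefl (chr14:68083863-68089095), the light subunit of neurofilaments, had the spread within groups closest to counting error. It was at 1.51, 1.78 and 2.01 CPM in WT mice given veh and at 0.583, 0.722 and 1.04 CPM in App NL-G-F mice given veh, and at 1.76, 1.97 and 2.29 CPM and 1.03, 0.576 and 0.378 CPM in the corresponding treated groups. The 6 WT libraries were all above the 6 App NL-G-F libraries. Nefl had 5 to 16 counts in App NL-G-F libraries and 22 to 40 in WT libraries. It passed the filter on low counts through the libraries in which it was high, which in itself favours a difference. Its log2 fold change was -1.18 (SE 0.34, adjusted p = 0.0187) in veh-treated and -1.57 (SE 0.34, adjusted p = 0.00335) in treated mice in edgeR. Exons of Nefl overlap those of Nefm, the medium subunit, on the opposite strand, which itself had 0 to 21 counts per library.

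Nrgn, on the postsynaptic side, had the smallest log2 fold change of the 9 transcripts that passed. Nrgn (chr9:37544492-37552904) was at 4.59, 5.46 and 5.81 CPM in WT mice given veh and at 1.75, 3.15 and 3.78 CPM in App NL-G-F mice given veh. In the treated groups it was at 6.55, 6.59 and 5.84 CPM in WT and at 3.49, 3.45 and 2.19 CPM in App NL-G-F mice. The strains were separate in both pairs. The log2 fold change was -0.87 (SE 0.26, adjusted p = 0.0214) in veh-treated and -1.05 (SE 0.26, adjusted p = 0.00671) in treated mice (edgeR).

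Of the transmitter genes, the glutamate transporter Slc17a7 (chr7:45163949-45176142) was lower and the GABA enzyme Gad1 could not be resolved. Slc17a7 was at 4.86, 3.80 and 2.24 CPM in WT mice given veh, from 71, 64 and 30 counts, and at 0.648, 0.591 and 0.370 CPM in App NL-G-F mice given veh, from 10, 9 and 5 counts. In treated mice it was at 2.58, 5.35 and 5.61 CPM in WT and at 1.03, 0.896 and 0.453 CPM in App NL-G-F mice. The lowest WT library thus stood above the highest App NL-G-F library. Like Syt1, Slc17a7 entered the test through WT libraries. Slc17a7 was 6.65-fold lower in App NL-G-F mice given veh (log2 fold change -2.73, 95% interval -3.69 to -1.77, adjusted p = 0.000523) and 5.58-fold lower in the treated ones (-2.48, -3.38 to -1.58, adjusted p = 0.000553, edgeR). Gad1 (chr2:70553072-70602014) had 2 to 36 counts per library, and was at 1.10, 0.415 and 0.447 CPM in WT mice given veh and 0.389, 0.263 and 0.445 CPM in App NL-G-F mice given veh. In treated mice it was at 0.378, 0.563 and 2.06 CPM in WT and at 0.452, 0.128 and 0.906 CPM in App NL-G-F mice, and the strains overlapped in both pairs. Its log2 fold change was -0.83 with a 95% interval of -2.57 to 0.92 in veh-treated mice (adjusted p = 0.442) and -1.05 with an interval of -2.63 to 0.53 in treated mice (adjusted p = 0.265, edgeR). A change of the size of that of Snap25 lies inside both intervals.

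Both noncoding or host-gene transcripts were lower as well. Meg3 (chr12:109541001-109571726), annotated as a lincRNA, was at 2.40, 2.14 and 2.68 CPM in WT mice given veh and at 0.453, 0.656 and 1.19 CPM in App NL-G-F mice given veh. With the protein it was at 2.02, 2.20 and 5.72 CPM in WT and at 0.387, 0.960 and 1.51 CPM in App NL-G-F mice. Meg3 had 6 to 20 counts in App NL-G-F libraries and 32 to 100 in WT libraries. Like Nefl, it passed the filter on low counts through the libraries in which it was high, which favours a difference. Its log2 fold change was -1.66 (SE 0.54, adjusted p = 0.0315) in veh-treated and -1.81 (SE 0.51, adjusted p = 0.0144) in treated mice. The second value rests in part on treated WT library 3, without which it was -1.16 with an adjusted p-value of 0.0717 (edgeR). In the veh pair its adjusted p-value rose to between 0.0555 and 0.115 when any 1 WT library, or App NL-G-F library 1 or 2, was left out. Exons of Meg3 also hold Mir770, Mir1906-1 and Gm27300 on its own strand and meet Gm26906 on the other.

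Snhg11 (chr2:158375638-158386145), listed as protein coding in this annotation, was at 2.74, 1.30 and 2.83 CPM in WT mice given veh and at 1.23, 0.525 and 1.33 CPM in App NL-G-F mice given veh. Veh-treated WT library 2 lay within the App NL-G-F range. In treated mice it was at 2.58, 2.99 and 4.92 CPM in WT and at 0.710, 0.768 and 0.604 CPM in App NL-G-F mice, without overlap. Snhg11 had 8 to 19 counts in App NL-G-F libraries and 22 to 86 in WT libraries. Like Meg3, it passed the filter on low counts through the libraries in which it was high, which favours a difference. The log2 fold change was -1.14 (SE 0.41, adjusted p = 0.0465) in veh-treated mice, close to the threshold, and -2.32 (SE 0.42, adjusted p = 0.000988) in treated mice in edgeR. With only the 2 veh-treated groups in the fit, the first was -1.15 with an adjusted p-value of 0.0723. The exons of Snhg11 also hold Gm25187 on the same strand.

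**Figure D2:**
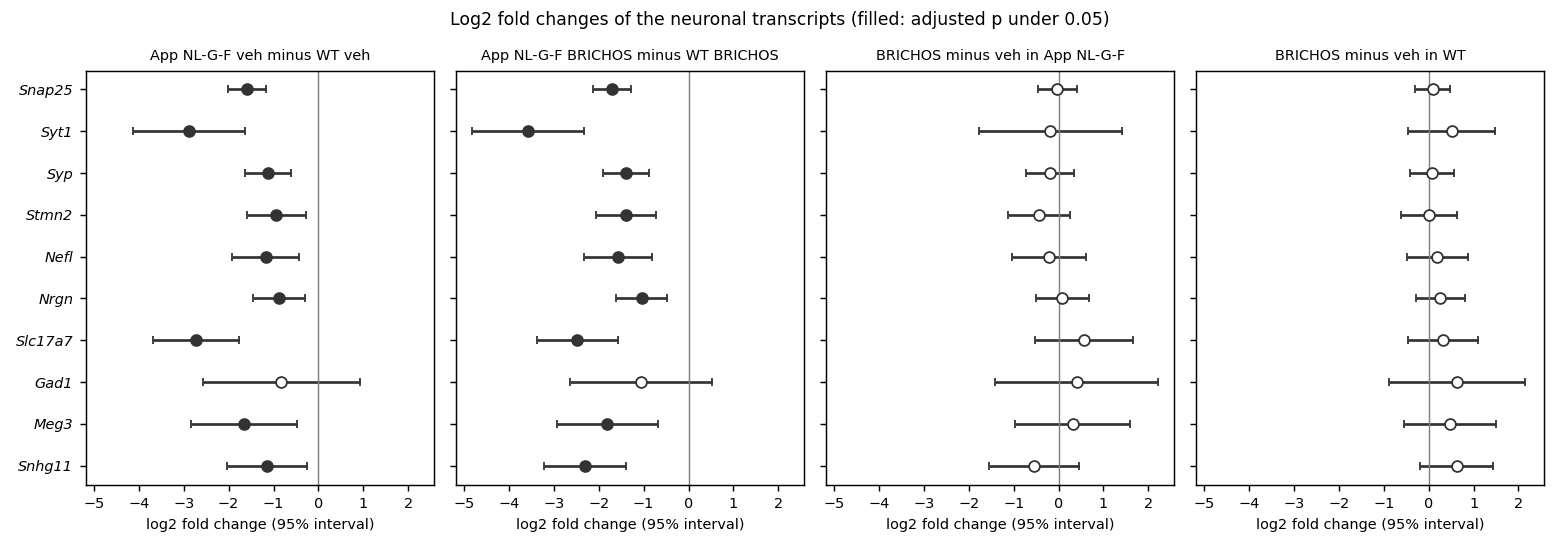
Log2 fold changes with 95% intervals from edgeR for 4 comparisons, with filled points where the adjusted p-value was under 0.05. In both strain comparisons 9 of 10 points are filled and lie left of 0, Syt1 and Slc17a7 farthest, and in both treatment comparisons 0 points are filled and all intervals include 0. Of all tested genes 16.9% (veh) and 21.8% (treated) passed and were lower in App NL-G-F mice. In the treatment comparisons 0.00648% (App NL-G-F) and 0% (WT) of all tested genes passed.

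Since their fold changes were the largest of the 10, Syt1 and Slc17a7 took a smaller share of the counts of the 10 transcripts in App NL-G-F mice. The shares restate that difference and are no further observation. Syt1 held 6.01% ± 2.61 (SD, n = 3) in WT mice given veh and 2.06% ± 0.772 in App NL-G-F mice given veh. Slc17a7 held 7.75% ± 2.29 and 2.91% ± 0.940, and for both the WT and App NL-G-F libraries of the veh pair did not overlap. In the treated mice Syt1 held 7.47% ± 2.90 and 1.91% ± 0.855 and Slc17a7 8.27% ± 2.13 and 4.61% ± 1.77. The share of Syp was 29.7% ± 5.16 and 34.1% ± 6.23, and that of Nrgn 11.6% ± 2.48 and 15.3% ± 4.74, both with overlap. These shares were chosen after the values had been seen and were not tested.

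Treatment with rh Bri2 BRICHOS R221E was not followed by a detected change in any of the 10. In App NL-G-F mice 0 of the 10 passed in edgeR, where 0.00648% of all tested genes did, and 0 of the 10 had an unadjusted p-value under 0.05, against 10.8% of all genes. The lowest unadjusted p-value was 0.188, for Stmn2. DESeq2's Wald test, in which 125 of 13900 genes passed, gave 0 of the 9 with an adjusted value. The intervals set what could have been missed. For Snap25 the log2 fold change was -0.03 with a 95% interval of -0.47 to 0.42 and for Syp -0.19 with -0.72 to 0.34, while for Syt1 it was -0.18 with -1.78 to 1.41 and for Slc17a7 0.56 with -0.53 to 1.66.

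In WT mice 0 of the 10 passed in edgeR and in DESeq2, where 0% of all tested genes passed in edgeR and 85 of 15597 in DESeq2, and 0 of the 10 had an unadjusted p-value under 0.05, against 11.4% of all genes. All 10 log2 fold changes were above 0, between 0.01 (Stmn2) and 0.63 (Gad1), where 50.9% of all tested genes were under 0, and the lowest unadjusted p-value was 0.119, for Snhg11 (0.62, 95% interval -0.19 to 1.43). Only the Nrgn libraries did not overlap (log2 fold change 0.26, interval -0.28 to 0.80), as for 17.5% of all genes. Snap25 stood at 0.09 with an interval of -0.30 to 0.47. Leaving out a library turned the sign for 5 of the 10, as given under the dependence on the processing. The treatment comparisons and the strain comparisons share libraries, so their values are not independent of each other.

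The difference between the treatment effects in the 2 strains was not detected for any of the 10 in either edgeR or DESeq2, where 0.00648% of all tested genes passed in edgeR and 240 of 16162 in DESeq2. At an unadjusted p-value under 0.05 there were 0 of the 10 and 14.8% of all genes. The lowest p-value was that of Snhg11 (difference -1.17 on the log2 scale, 95% interval -2.46 to 0.12, unadjusted p = 0.0714, adjusted p = 0.379).

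Within the WT mice the transcripts did not rise and fall together. Syt1, Slc17a7 and Syp were lowest in veh-treated library 3 and treated library 1, in which Syt1 was at 1.27 and 1.89 CPM against 3.22 to 5.46 CPM in the other 4. Stmn2, by contrast, was highest in these libraries, at 6.93 and 8.57 CPM against 4.67 to 5.81 CPM. They also had the lowest level of the neutrophil gene S100a8 among WT mice, 10.9 and 21.7 CPM against 63.4 to 105 CPM, and of the haemoglobin gene Hbb-bs, 48.6 and 37.9 CPM against 96.4 to 171 CPM. The summed level of the astrocyte markers was lowest there too, at 535 and 572 CPM against 753 to 841 CPM. The part of these markers in the neuronal values was not tested.

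Treated WT library 3 stood out in another set of transcripts. Meg3 was at 5.72 CPM there against 2.02 to 2.68 CPM in the other WT libraries, Gad1 at 2.06 against 0.378 to 1.10 CPM, and Snhg11 at 4.92 against 1.30 to 2.99 CPM. This library also had the highest level of the choroid plexus gene Ttr, at 6415 CPM, and of Pdgfra, a marker of oligodendrocyte precursors, at 28.6 CPM, and their part was not tested either. As a description over 12 libraries after subtraction of the group means, the correlation of a transcript with the mean of the other 9 was between -0.48 (Stmn2) and 0.54 (Gad1), with Snap25 at 0.32. All points share low counts. The spread within groups, as a Pearson chi-square per degree of freedom that would be near 1 for counting error alone, was 1.15 for Nefl and 1.76 for Snap25, 6.89 for Syt1, 7.65 for Meg3 and 8.55 for Syp.

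**Figure D3:**
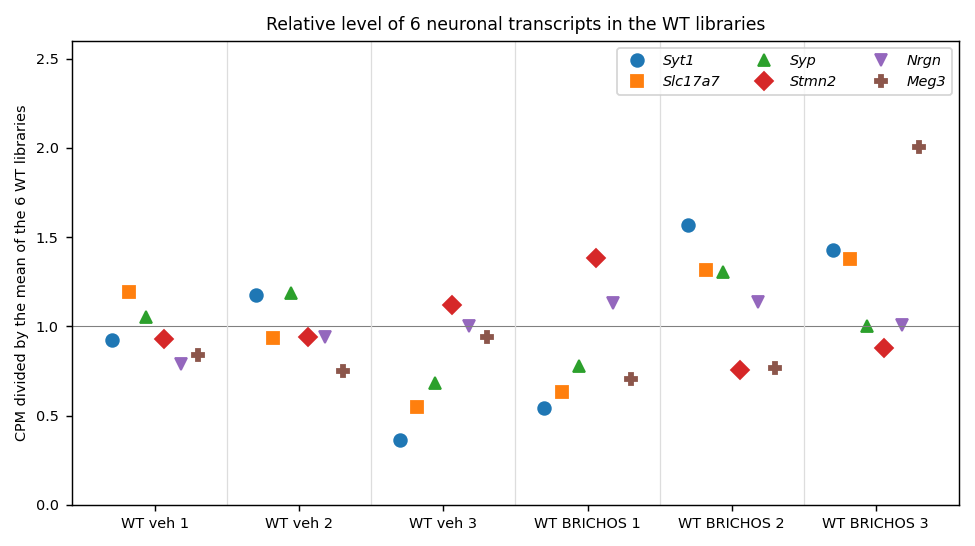
Level of 6 transcripts in each WT library, as CPM divided by the mean over the 6 WT libraries, on a linear axis from 0. Syt1, Slc17a7 and Syp are lowest in veh library 3 and BRICHOS library 1, where Stmn2 is highest, and Meg3 is highest in BRICHOS library 3.

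Other neuronal genes were read from a list of 44 in 5 roles, of which 31 passed the filter on low counts. In veh-treated mice 11 were lower and 2 higher in App NL-G-F than in WT mice, and the median log2 fold change was -0.65, whereas 16.9% and 20.1% of all tested genes were lower and higher. With rh Bri2 BRICHOS R221E 14 were lower and 1 higher, with a median of -0.76, whereas 21.8% and 20.8% of all tested genes were lower and higher. Of the genes described next, Vamp2, Sv2a, Mapt, Map1b, Camk2a, Dlg4, Sst, Pvalb, Rian and Elavl4 were named as the most abundant of their role, and the others after their values had been seen. Of the 31 tested genes 22 had 10 or more counts in every library. The other 9 (Syn1, Sv2b, Nefh, Ina, Grin1, Slc32a1, Sst, Miat and Rbfox3) passed the filter through the libraries in which they were high, which in itself favours a difference, so these counts too are a description. No gene of the list passed in edgeR in the treatment of App NL-G-F mice, in that of WT mice or in the difference between them. An unadjusted p-value under 0.05 was found for 5, 1 and 4 of the 31, against 10.8%, 11.4% and 14.8% of all tested genes.

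Of the 10 other genes of the vesicle and its release, 1 (Stx1a) was lower in App NL-G-F mice given veh and 0 were higher. The most abundant of them, the SNARE protein Vamp2, did not differ detectably (log2 fold change 0.01, 95% interval -0.12 to 0.15), and Sv2a had -0.66 (interval -1.42 to 0.09). Vamp2 is also used for membrane fusion in cells other than neurons. Of 9 genes of the axon and cytoskeleton, 5 were lower (Nefh, Ina, Map1b, Stmn3 and Uchl1) and Map2 was higher. Map1b had a log2 fold change of -0.69 (SE 0.22, adjusted p = 0.0289, edgeR), and Mapt, the tau gene that oligodendrocytes also use, had -0.93 (SE 0.50, adjusted p = 0.165).

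Of 4 tested genes of excitatory neurons, the glutamate receptor subunit Grin1 and the kinase Camk2a were lower and 0 were higher. Camk2a had a log2 fold change of -0.52 (SE 0.18, adjusted p = 0.0449) and the postsynaptic scaffold Dlg4 of -0.04 (95% interval -0.32 to 0.24) in edgeR. Grin1, with 28 to 139 counts in WT and 3 to 8 in App NL-G-F libraries, was at 5.07, 5.75 and 2.09 CPM in WT mice given veh and at 0.518, 0.459 and 0.370 CPM in App NL-G-F mice given veh. Its log2 fold change was -3.24 (SE 0.50, adjusted p = 0.000381), and like Syt1 and Slc17a7 it was lowest in WT libraries veh 3 and BRICHOS 1, at 2.09 and 2.90 CPM. Exons of Grin1 overlap those of its antisense gene Grin1os, whose reads cannot be told apart without the strand.

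Of the inhibitory neuron genes only 2 of 8 could be tested. The neuropeptide gene Sst was lower in App NL-G-F mice given veh (log2 fold change -2.07, SE 0.74, adjusted p = 0.0464, edgeR) with 1 to 19 counts in WT libraries of this comparison and 2 to 3 in App NL-G-F libraries, so that it entered the test through WT libraries, and Pvalb, with at most 21 counts, did not pass the filter. Of 6 noncoding RNAs and RNA-binding proteins, Rian and Celf4 were lower and Elavl4 was higher. Rian, an imprinted noncoding RNA that is transcribed from the same cluster as Meg3, was at 6.78, 9.43 and 7.15 CPM in WT mice given veh and at 2.20, 2.30 and 3.33 CPM in App NL-G-F mice given veh (log2 fold change -1.58, SE 0.24, adjusted p = 0.000316). Elavl4, an RNA-binding protein of neurons, was at 5.96, 6.23 and 6.04 CPM and at 8.22, 11.7 and 11.0 CPM, respectively (0.76, SE 0.18, adjusted p = 0.00562).

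**Figure D4:**
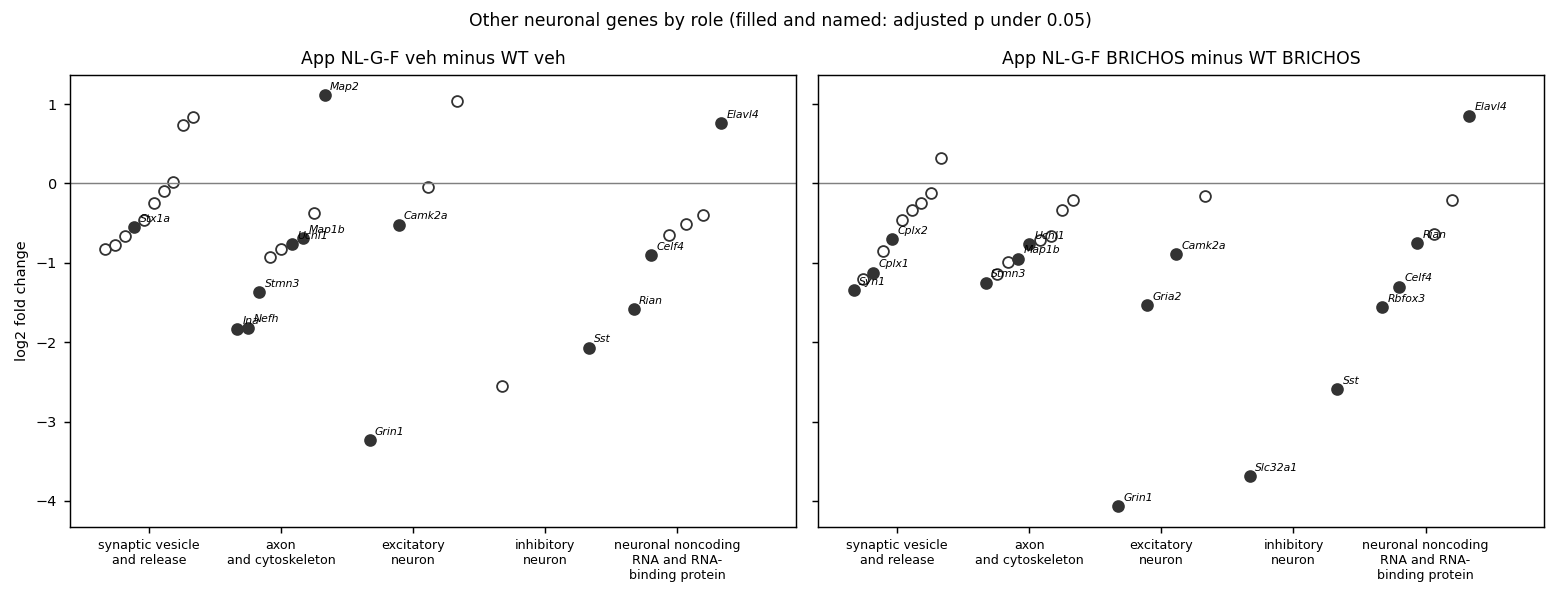
Log2 fold changes of the 31 tested genes of the wider neuronal list by role, in the veh-treated (left) and rh Bri2 BRICHOS R221E-treated (right) strain comparison, with filled and named points where the adjusted p-value in edgeR was under 0.05. Most points lie below 0, Grin1 lowest, and Map2 and Elavl4 are filled above 0 on the left.

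Several lists of markers of other cells also differed between the strains. In the veh pair 16.9% of all tested genes passed and were lower in App NL-G-F mice, and 20.1% passed and were higher. In the treated pair these shares were 21.8% and 20.8%. In lists this short, the veh counts of the oligodendrocyte, precursor, mural and B cell markers did not stand clear of them. Of the 7 microglial markers 5 were lower and 1 higher in App NL-G-F mice in the veh pair, and 4 were lower and 1 higher in the treated pair. In veh-treated mice 4 of 4 neutrophil markers were lower in App NL-G-F mice, with a summed level of 31.3 to 346 CPM in WT and 12.4 to 32.6 CPM in App NL-G-F mice. Of 5 endothelial markers 4 were lower (537 to 601 and 402 to 541 CPM). The remaining endothelial marker, Flt1, did not pass and had the highest means, 237 CPM in WT and 291 CPM in App NL-G-F mice. It thus made up much of the endothelial sum. Of 7 oligodendrocyte markers 2 were lower (9668 to 16932 and 3214 to 5635 CPM). Astrocyte markers went the other way, with 7 of 8 higher in App NL-G-F mice, at 535 to 774 CPM in WT and 1480 to 4573 CPM in App NL-G-F mice. Of 4 oligodendrocyte precursor markers 1, Cspg4, was higher, with means of 10.1 CPM in WT and 100 CPM in App NL-G-F mice. Cspg4 made up most of the rise of the precursor sum (27.0 to 37.7 and 101 to 149 CPM). The means of the others were 3.34 and 2.35 (Pdgfra), 3.03 and 4.74 (Vcan) and 16.5 and 17.9 CPM (Tnr). Of the mural markers 1 of 5 and of the B cell markers 1 of 3 were lower, and 0 of 6 choroid plexus and 0 of 3 erythroid markers passed. In the treated mice 4 of 5 endothelial and 2 of 4 neutrophil markers were lower, 0 of 7 oligodendrocyte markers passed, 1 of 8 astrocyte markers was higher, and of the precursor markers 1 was higher and 2 were lower. There, all 6 choroid plexus markers (3187 to 6658 CPM in WT and 637 to 952 CPM in App NL-G-F mice), all 5 mural markers (215 to 287 and 70.7 to 114 CPM), all 3 B cell and all 3 erythroid markers were lower as well. No marker of these lists was at 0 in every library.

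Measures of the RNA also differed between the strains. Mitochondrial genes held 1.62% to 2.06% of the counts in WT and 1.08% to 1.21% in App NL-G-F libraries, and ribosomal protein genes 1.94% to 2.27% and 2.47% to 3.15%. Strain and the makeup of the isolate cannot be told apart in these libraries, and the part of these measures in the neuronal values was not tested.

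**Figure D5:**
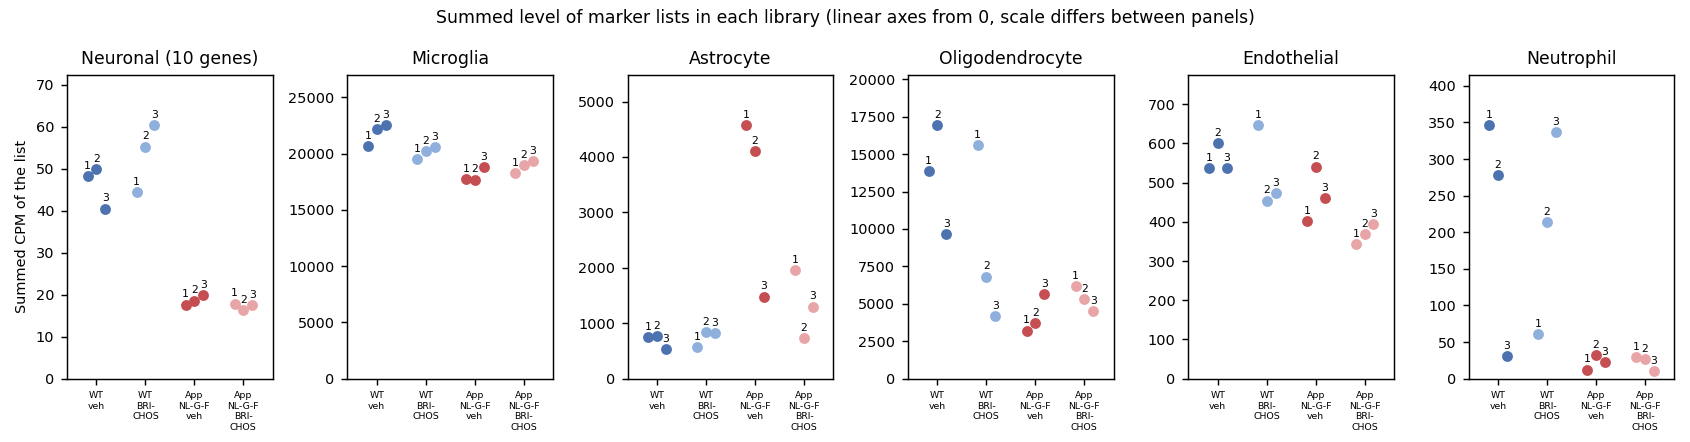
Summed CPM of 6 marker lists in each library on linear axes from 0, with a scale for each panel. The neuronal sum is 40.5 to 60.3 CPM in WT and 16.3 to 19.9 CPM in App NL-G-F libraries, the microglial sum is 19519 to 22517 CPM in WT and 17681 to 19350 CPM in App NL-G-F libraries, and the astrocyte sum is highest in veh App NL-G-F libraries 1 and 2.

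The genes whose level followed the mean log2 CPM of the 10 transcripts most closely, over the 12 libraries and after subtraction of the group means, were Faap100, B430306N03Rik, Gpr141, Zfp52, Klhl26, Camk2b, Gnal, Shisal1, Pqlc3 and Dolpp1, with Pearson correlations of 0.934 down to 0.896 among 13661 genes with a mean of at least 1 CPM. Without treated WT libraries 1 and 3, the 2 farthest from the median, these 10 correlations ran from 0.652 (Dolpp1) to 0.973 (Faap100). The 10 were picked as the highest, which in itself favours high values. Most other neuronal genes ranked here had a correlation above 0 over the 12 libraries. Camk2a ranked 20 with a correlation of 0.869, followed by Gria2 with 0.65, Celf4 with 0.60 and Grin1 with 0.53. Of the most abundant genes of their role, Dlg4 had 0.37, Vamp2 and Elavl4 0.30 each and Map1b 0.17. Those under 0 were Syn1 (-0.0024), Stx1a (-0.14), Sv2a (-0.22), Mapt (-0.43) and Rian (-0.43). The oligodendrocyte precursor markers Vcan and Pdgfra ranked 98 and 115, at 0.771 and 0.762. The correlations are a description, and they share the library and its depth.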

How the data were processed

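The authors aligned trimmed reads of stranded mRNA libraries to GRCm38 with STAR and deposited raw counts per gene from featureCounts (1.5.1 in the submitters' processing notes), without normalization. The strand setting is not given in the sources used here. Libraries were assigned to groups by title. Here, 15425 genes passed edgeR's filterByExpr (minimum count 10). A quasi-likelihood model with a mean for each of 4 groups was fitted to all 12 libraries with TMM factors (R 4.3.3, edgeR 4.0.16), and p-values were adjusted by Benjamini and Hochberg over all tested genes. The tests set group differences against the spread between libraries. With 1 library per mouse, the spread between mice cannot be told apart from that of isolation and library preparation. DESeq2 1.42.0, other filters and scalings, fits of the compared groups alone, the replicate number as a block and the omission of each library were alternatives. Named were the 10 transcripts and, of each role of the wider list, the 2 genes with the highest mean CPM and those that passed in a treatment comparison or in the difference between them; further genes of that list were named after their values had been seen. Members and lists were chosen with earlier results of these data known, and 4 genes of the marker and wider lists are not reported here and were left out of all list counts and sums. In simulated data for veh-treated App NL-G-F against WT mice (15425 genes), edgeR recovered 145 of 200 genes changed 4-fold at the levels of the 10 transcripts, with 6 false calls. DESeq2 recovered 154, with 21 false calls. Only these 200 genes were changed, whereas 37% of the tested genes passed in the real comparison, so the rates need not hold there. In the veh pair only Syt1 (7.38-fold) and Slc17a7 (6.65-fold) differed by more than 4-fold. Smaller changes, such as those of the other transcripts and of the treatment comparisons, were not simulated. Promoter sequences are from RefSeq. Figures were drawn with matplotlib 3.10.9.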

Additional observations from a re-analysis of the deposited data

How the results depend on the processing

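In both strain comparisons Snap25, Syt1, Syp and Slc17a7 passed under every alternative that tested them. Of 9 transcripts lower in App NL-G-F mice given veh, 4 to 9 passed when a library was left out, with 4 without veh-treated WT library 3 or App NL-G-F library 1. Among all tested genes, 15696 to 15907 in these fits, 4449 to 5981 passed, against 5710 of 15425 with all libraries. With at least 10 counts in every library, 4 of the transcripts were lower in each strain comparison, because only 4 could be tested. In the treated strain comparison 8 to 9 of 9 transcripts passed with a library left out. Among all tested genes 5461 to 6693 passed there, against 6560 with all libraries. For the wider list the 11 genes lower in veh-treated mice became 5 to 12 with a library left out, with 5 without veh WT library 2 or App NL-G-F library 1, 6 without App NL-G-F library 2 and 7 without WT library 1, and the 2 higher became 1 to 3, with 1 without veh WT library 2 or 3 or App NL-G-F library 1 or 2. With at least 10 counts in every library, 7 of the wider list were lower in veh-treated and 9, against 14, in treated mice, with fewer genes tested, and total-count scaling left 1 higher in veh-treated mice. For the difference of treatment effects 1 gene of the wider list, Gria2, passed with DESeq2 and 1, Gria2, without a filter, against 0. Scaling to total counts gave a summed level of 17.5 CPM in App NL-G-F mice given veh and 15.7 CPM in treated ones. Stmn2 in WT mice turned to -0.00280 (log2) with rh Bri2 BRICHOS R221E without a filter.

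Signs turned when a library was left out only for log2 fold changes that had not passed. For the treatment of App NL-G-F mice the ranges were -0.32 to 0.88 (Gad1), -0.16 to 0.75 (Meg3), -0.68 to 0.053 (Nefl), -0.16 to 0.32 (Nrgn), -0.17 to 0.072 (Snap25) and -0.65 to 0.12 (Syt1). In WT mice they were -0.45 to 1.21 (Gad1), -0.19 to 0.72 (Meg3), -0.062 to 0.18 (Snap25), -0.29 to 0.18 (Stmn2) and -0.13 to 0.24 (Syp). For the difference of the effects they were -0.94 to 0.85 (Gad1), -0.62 to 0.50 (Meg3), -0.42 to 0.066 (Nrgn), -0.018 to 0.52 (Slc17a7) and -0.26 to 0.037 (Snap25). Gad1 in the treated strain comparison ranged from -1.77 to 0.028. Gad1 had 2 to 36 counts per library and the highest biological coefficient of variation of the 10, 54.7%.

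In a fit that took the replicate number as block, 9 of the 10 transcripts were lower in each strain comparison and 0 passed in the others, and of the wider list 12 and 14 were lower. Of the 15425 genes tested in that fit, 2782 passed and were lower in the veh pair and 3507 in the treated pair. In the treatment of App NL-G-F mice, that of WT mice and the difference between them, 0, 0 and 1 of these genes passed. Equally numbered libraries were not treated as pairs, since the correlation of their deviations was not above 0.1 for every pair (means 0.124, 0.0801, 0.143 and 0.0808 in the 4 comparisons). Single correlations ran from -0.0148 to 0.227, and this rule cannot decide whether libraries of equal number shared a batch.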

Other observations

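Gria2, a glutamate receptor subunit of the wider list, showed the largest difference of treatment effects among the neuronal genes, and was named after its values were seen. It was at 5.48, 3.44 and 2.53 CPM in veh-treated WT mice and at 3.09, 8.90 and 10.9 CPM in treated WT mice. In App NL-G-F mice it was at 10.2, 8.53 and 4.74 CPM with veh and at 3.29, 1.47 and 3.17 CPM with rh Bri2 BRICHOS R221E, without overlap. The difference of the effects was -2.57 on the log2 scale (95% interval -4.05 to -1.09, unadjusted p = 0.00274, adjusted p = 0.168 in edgeR). The adjusted p-value was 0.015 in DESeq2 and 0.0472 in edgeR without a filter. Astrocyte markers, which were highest in veh-treated App NL-G-F libraries 1 and 2, as Gria2 was among App NL-G-F libraries, were not tested for their part in it.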
